A study of Homo sapiens with 12 samples.

Results

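The genes described here are 9 components of HLA class I antigen presentation: HLA-B, HLA-C, HLA-E, HLA-F, B2M, TAP1, TAP2, TAPBP and NLRC5. They were chosen by symbol from the 56269 genes of the count table by a list that set no threshold on their values. RNA-seq counts came from 12 libraries of HEYA8, an ovarian cancer cell line labelled as high grade serous, grown at rest in RPMI-1640 with 10% FBS. Each of 4 genotype groups had 3 libraries. The groups differ in the form of betaglycan (BG, the TGF-β co-receptor encoded by TGFBR3) that was introduced, with each form altering the serines that carry its glycosaminoglycan (GAG) chains.

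The S534A group (CS-BG) received BG with alanine at one attachment site, the S545A group (HS-BG) received BG with alanine at the other, and the ∆GAG-BG group received BG without either site. The remaining group was labelled Control and is called control vector. Per the study's methods, the BG forms were delivered in the pHIV-dTomato lentiviral backbone and infected cells were sorted by dTomato, so that each genotype is a sorted population made in 1 line. The labels do not say whether the 3 libraries of a group came from separate cultures, and p-values may therefore measure technical spread only.

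Class I molecules display peptides from inside the cell to CD8 T cells and NK cells. HLA-B and HLA-C are classical heavy chains that present peptides to T cells, HLA-E presents leader peptides of other class I chains to NK receptors, and HLA-F is a non-classical heavy chain. B2M encodes β2-microglobulin, the light chain shared by all of them. TAP1 and TAP2 form the transporter that moves peptides into the endoplasmic reticulum, TAPBP (tapasin) bridges the transporter and the heavy chain, and NLRC5 is a transactivator of class I genes. Interferons are well known to raise most of these genes through factors such as IRF1. By the exon coordinates given with the counts (GRCh38), the genes of the major histocompatibility complex lie on chromosome 6, in the order HLA-F (chr6:29722775-29738528), HLA-E (chr6:30489467-30494205), HLA-C (chr6:31268749-31272130), HLA-B (chr6:31353872-31357188), TAP2 (chr6:32821833-32838780), TAP1 (chr6:32845209-32853978) and TAPBP (chr6:33299694-33314387). B2M lies on chromosome 15 (chr15:44711477-44718877) and NLRC5 on chromosome 16 (chr16:56989485-57083531). The extents of HLA-B and B2M differ from those in GENCODE 29, and those of the other genes are the same.

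The promoters are shown because these genes are known for shared regulatory elements. RefSeq promoter windows on GRCh38.p14 were found for 7 of the 9 genes, and HLA-E and NLRC5 had no entry. The 200 bases before each start are printed 5′ to 3′ on the gene's strand. Capitals mark matches, on either strand, to AANNGAAA (the IRF core), the ISRE core (GAAA, any 2 bases, then GAAA, which contains the IRF core), the kappaB consensus, CCAAT (the Y box) and TGACG (the CRE half-site). TAP1 had a second window, with no match, which is not printed.
HLA-B, chr6:31357180-31357379, minus strand: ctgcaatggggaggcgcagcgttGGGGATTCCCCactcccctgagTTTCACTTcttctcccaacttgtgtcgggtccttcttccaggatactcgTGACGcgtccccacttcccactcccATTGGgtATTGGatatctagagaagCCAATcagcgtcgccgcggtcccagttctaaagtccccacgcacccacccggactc
HLA-C, chr6:31272093-31272292, minus strand: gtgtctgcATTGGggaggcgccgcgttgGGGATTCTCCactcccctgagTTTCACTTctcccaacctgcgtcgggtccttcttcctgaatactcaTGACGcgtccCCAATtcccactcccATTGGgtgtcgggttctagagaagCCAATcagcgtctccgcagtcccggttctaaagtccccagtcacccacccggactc
HLA-F, chr6:29723234-29723433, plus strand: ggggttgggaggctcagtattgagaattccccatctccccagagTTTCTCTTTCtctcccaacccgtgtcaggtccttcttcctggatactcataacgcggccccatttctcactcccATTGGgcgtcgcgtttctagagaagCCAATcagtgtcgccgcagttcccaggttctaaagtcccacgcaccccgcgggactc
B2M, chr15:44711317-44711516, plus strand: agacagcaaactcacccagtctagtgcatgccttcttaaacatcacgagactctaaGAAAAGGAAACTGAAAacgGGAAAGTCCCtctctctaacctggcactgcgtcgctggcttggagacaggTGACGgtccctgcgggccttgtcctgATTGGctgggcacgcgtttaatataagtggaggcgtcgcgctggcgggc
TAP1, chr6:32853705-32853904, minus strand: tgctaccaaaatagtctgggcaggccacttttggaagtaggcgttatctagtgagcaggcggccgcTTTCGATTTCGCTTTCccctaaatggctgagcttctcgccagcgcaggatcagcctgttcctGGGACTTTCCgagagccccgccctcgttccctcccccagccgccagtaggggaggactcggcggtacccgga
TAP2, chr6:32838740-32838939, minus strand: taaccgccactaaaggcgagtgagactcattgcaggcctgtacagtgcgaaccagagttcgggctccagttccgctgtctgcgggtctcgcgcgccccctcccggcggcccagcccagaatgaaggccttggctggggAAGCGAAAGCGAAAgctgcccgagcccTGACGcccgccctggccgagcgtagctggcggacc
TAPBP, chr6:33314079-33314278, minus strand: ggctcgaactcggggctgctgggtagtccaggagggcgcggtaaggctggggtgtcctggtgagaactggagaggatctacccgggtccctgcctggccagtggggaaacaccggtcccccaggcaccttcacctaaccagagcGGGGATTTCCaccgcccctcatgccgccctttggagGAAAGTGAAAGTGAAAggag

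Over the 250 bases before the start, the IRF core occurred in 7 of 7 genes and in 20.3% of all 35116 RefSeq windows. The ISRE core occurred in 5 of 7 genes, HLA-F, TAP2, TAP1, TAPBP and B2M, and in 3.02% of all windows. The kappaB consensus was present in HLA-C, HLA-B, TAP1, TAPBP and B2M, against 9.96% of all windows. The Y box was found in 5 of 7 genes (32% of all windows) and the CRE half-site in 4 of 7 (21.2%). Aligned end to end over these 250 bases, HLA-B and HLA-C were 89% identical and HLA-F and HLA-B 80.4%, whereas HLA-B and B2M were 46.6% identical. The matches describe these letters only.

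Sequencing depth was 16410001 to 29504297 counts per library, and levels are given as CPM, counts scaled to a common library total, after TMM scaling. A level of 3 counts corresponds to 0.1 to 0.182 CPM. Leukocyte markers were at or near 0 (CD3E at 0 and PTPRC at most 2 counts per library), and the summed CPM of 6 leukocyte and endothelial markers was 0.242 to 0.812. The summed CPM of 8 epithelial ovarian carcinoma markers was 2320 to 2950, carried by KRT7, KRT8, KRT18 and PAX8, whereas MUC16 was at 0 in every library, EPCAM at 0.367 to 1.76 CPM and KRT19 at 0.141 to 0.788 CPM. The mesenchymal marker VIM was at 2341 to 3129 CPM. The betaglycan gene TGFBR3 was at 413 to 476 CPM in the S534A libraries and at 520 to 574 CPM in the S545A libraries. It was at 259, 20.3 and 21.4 CPM in the libraries labelled ∆GAG-BG and at 15.9, 259 and 259 CPM in those labelled control vector. These 2 groups thus overlapped for the gene that was introduced, and differences drawn from them are differences between labels. In control vector, ∆GAG-BG and S545A, libraries 2 and 3 were nearly alike: a chi-square test of their counts over genes gave 1.40 to 1.99 per degree of freedom, whereas other pairs within a genotype gave 17.4 to 77.9. These values do not show whether libraries 2 and 3 came from separate cultures, so results were also computed with their counts summed. S534A library 2 and ∆GAG-BG library 1 stood apart from their groups (63.8 to 77.9 per degree of freedom), as did S545A library 1 (28.6 and 32.8) and control vector library 1 (29.4 and 31.3). The first libraries of S534A, S545A and control vector were closer to each other, at 3.94 to 9.23, than to the libraries of their own genotypes.

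Class I genes covered a wide range of levels, from B2M at a median of 437 CPM to HLA-F at the edge of detection. Since levels of different genes can only be compared per length, CPM was divided by the kilobases of merged exon. On that scale the median of the 12 libraries was 71.7 for B2M, 66.1 for HLA-E, 28.2 for HLA-C, 20.8 for HLA-B, 13.1 for TAPBP, 4.82 for TAP2, 1.98 for TAP1, 0.442 for NLRC5 and 0.0217 for HLA-F. B2M was above HLA-E in 9 of 12 libraries, and the ranges of these 2 genes overlapped (64.8 to 73.8 and 36.5 to 81.4). From HLA-E downward, every neighbouring pair was ordered the same way in 12 of 12 libraries. When the longest coding transcript in GENCODE 29 was used as the length, B2M had a median of 256 and was above HLA-E (75.6) in 12 of 12 libraries, HLA-E was above HLA-C in 11, HLA-C (45.5) and HLA-B (40.6) were in that order in 7 of 12, and the order of the remaining genes did not change. The tapasin transcript was thus present at a higher level per kilobase than either transporter subunit, by 2.72 times over TAP2 on merged exons.

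**Figure D1:**
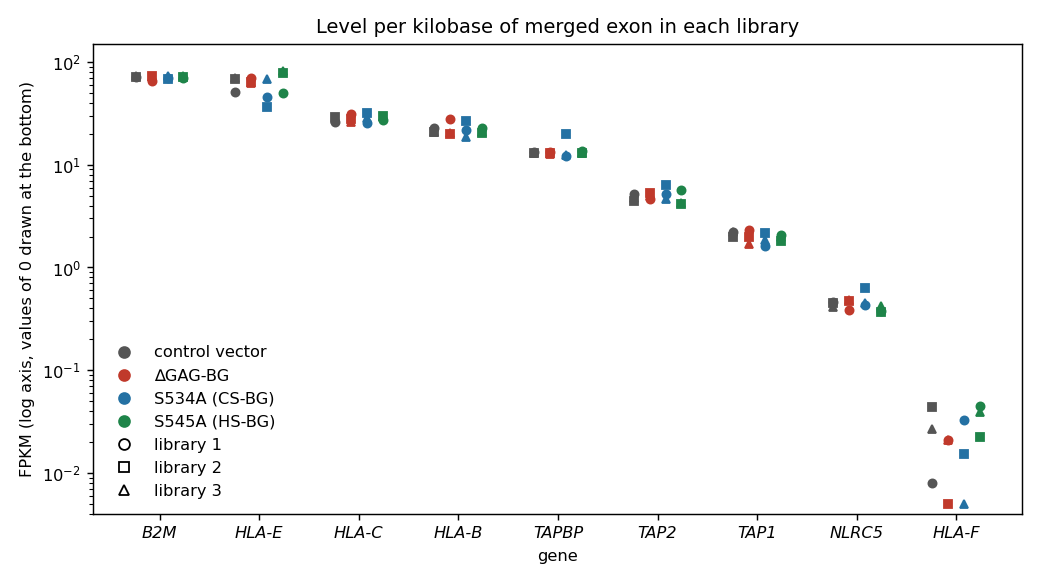
Level of each gene in CPM per kilobase of merged exon (log axis) in each of the 12 libraries, coloured by genotype with marker shape giving the library number and values of 0 drawn at the bottom. Medians fall from 71.7 for B2M to 0.0217 for HLA-F, and points of the 4 genotypes lie together within each gene.

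The heavy chains HLA-B and HLA-C were at similar levels in all genotypes. HLA-B was at 69.3, 62.6 and 63.0 CPM in control vector libraries 1, 2 and 3, at 84.8, 60.2 and 61.0 CPM in ∆GAG-BG, at 65.7, 80.7 and 56.3 CPM in S534A, and at 69.3, 60.8 and 62.3 CPM in S545A. The 2 highest values were those of ∆GAG-BG library 1 and S534A library 2, and all groups overlapped. HLA-C was at 65.2, 73.5 and 70.3 CPM in control vector, at 78.8, 69.8 and 65.4 CPM in ∆GAG-BG, at 64.5, 80.0 and 71.0 CPM in S534A, and at 68.4, 74.0 and 73.0 CPM in S545A. The same 2 libraries were highest for HLA-C. Between S545A and S534A, the log2 fold change of HLA-B was -0.08 ± 0.149 (SE, 95% interval -0.401 to 0.250, adjusted p = 0.876 by edgeR's quasi-likelihood test). For HLA-C it was -0.0007 ± 0.0994 (95% interval -0.217 to 0.216, edgeR adjusted p = 0.998). Over all 6 comparisons the intervals of HLA-C lay between -0.217 and 0.262, so that changes larger than these bounds lie outside every interval. The intervals take the libraries of a group as independent, which the labels do not show, and may be too narrow. Class I heavy chains are near-identical in sequence over long stretches, and how reads shared between them were assigned is not given in the sources used here. An antisense gene also overlaps 18% of HLA-B's exon length.

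HLA-E, the ligand of the NKG2A inhibitory receptor, varied most among the 8 genes tested. It was at 152, 204 and 208 CPM in control vector libraries 1, 2 and 3, at 208, 192 and 186 CPM in ∆GAG-BG, at 135, 109 and 202 CPM in S534A, and at 147, 230 and 242 CPM in S545A. Its highest library was 2.23 times its lowest, with a coefficient of variation of 21.9% over the 12 libraries. The first libraries of control vector, S534A and S545A, which were closer to each other over all genes than to their group mates, were at 135 to 152 CPM, and S534A library 2 was the lowest of all, the opposite of its place for HLA-B and HLA-C. The S545A mean of 207 ± 51.6 CPM (SD, n = 3) was above the S534A mean of 148 ± 48.1 CPM (SD, n = 3), but the groups overlapped. The log2 fold change, singled out after its values were seen, was 0.48 ± 0.230 (95% interval -0.0248 to 0.981, edgeR adjusted p = 0.702). Without S534A library 2 it was 0.30 (edgeR adjusted p = 0.9997), and without S534A library 3 it was 0.76 (edgeR adjusted p = 0.305). The intervals of HLA-E were the widest among the class I genes.

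HLA-F was at the edge of detection at this depth. It was above the 3-count floor in 4 of 12 libraries, with 4 or 5 counts in each, and had 0 to 5 counts per library and 30 counts in all 12 libraries together, against 19517 for HLA-B. HLA-F was at 0.0346, 0.188 and 0.117 CPM in control vector, 0.0906, 0 and 0.0902 CPM in ∆GAG-BG, 0.142, 0.0667 and 0 CPM in S534A, and 0.194, 0.0979 and 0.171 CPM in S545A. The S545A libraries lay above the ∆GAG-BG libraries, but with at most 5 counts in a library no order can be read. The main model did not test HLA-F because it did not pass the count filter. The alternative without that filter called 0 of 9 class I genes in this comparison. The exons of HLA-F also overlap those of antisense genes, over 16.1% of their length for HCG4P11, 12.3% for HLA-F-AS1 and 5.92% for RPL23AP1. Its promoter, printed above, held an ISRE core, which was not matched in HLA-B or HLA-C, and 2 Y boxes, beside 3 in HLA-B and 4 in HLA-C. The kappaB consensus and CRE half-site of HLA-B and HLA-C were not matched there. Whether these matches bear on the level of HLA-F was not tested.

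B2M was the steadiest class I gene. It was at 437, 435 and 449.5 CPM in control vector, at 394, 446 and 436 CPM in ∆GAG-BG, at 429, 420 and 446 CPM in S534A, and at 429, 439 and 449 CPM in S545A. Its lowest values were those of ∆GAG-BG library 1 and S534A library 2, the libraries in which HLA-B and HLA-C were highest. The highest library was 1.14 times the lowest, and the coefficient of variation was 3.58%. Between S545A and S534A its log2 fold change was 0.03 ± 0.0746 (95% interval -0.137 to 0.188, edgeR adjusted p = 0.920). All 6 intervals lay between -0.212 and 0.208 on the log2 scale.

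**Figure D2:**
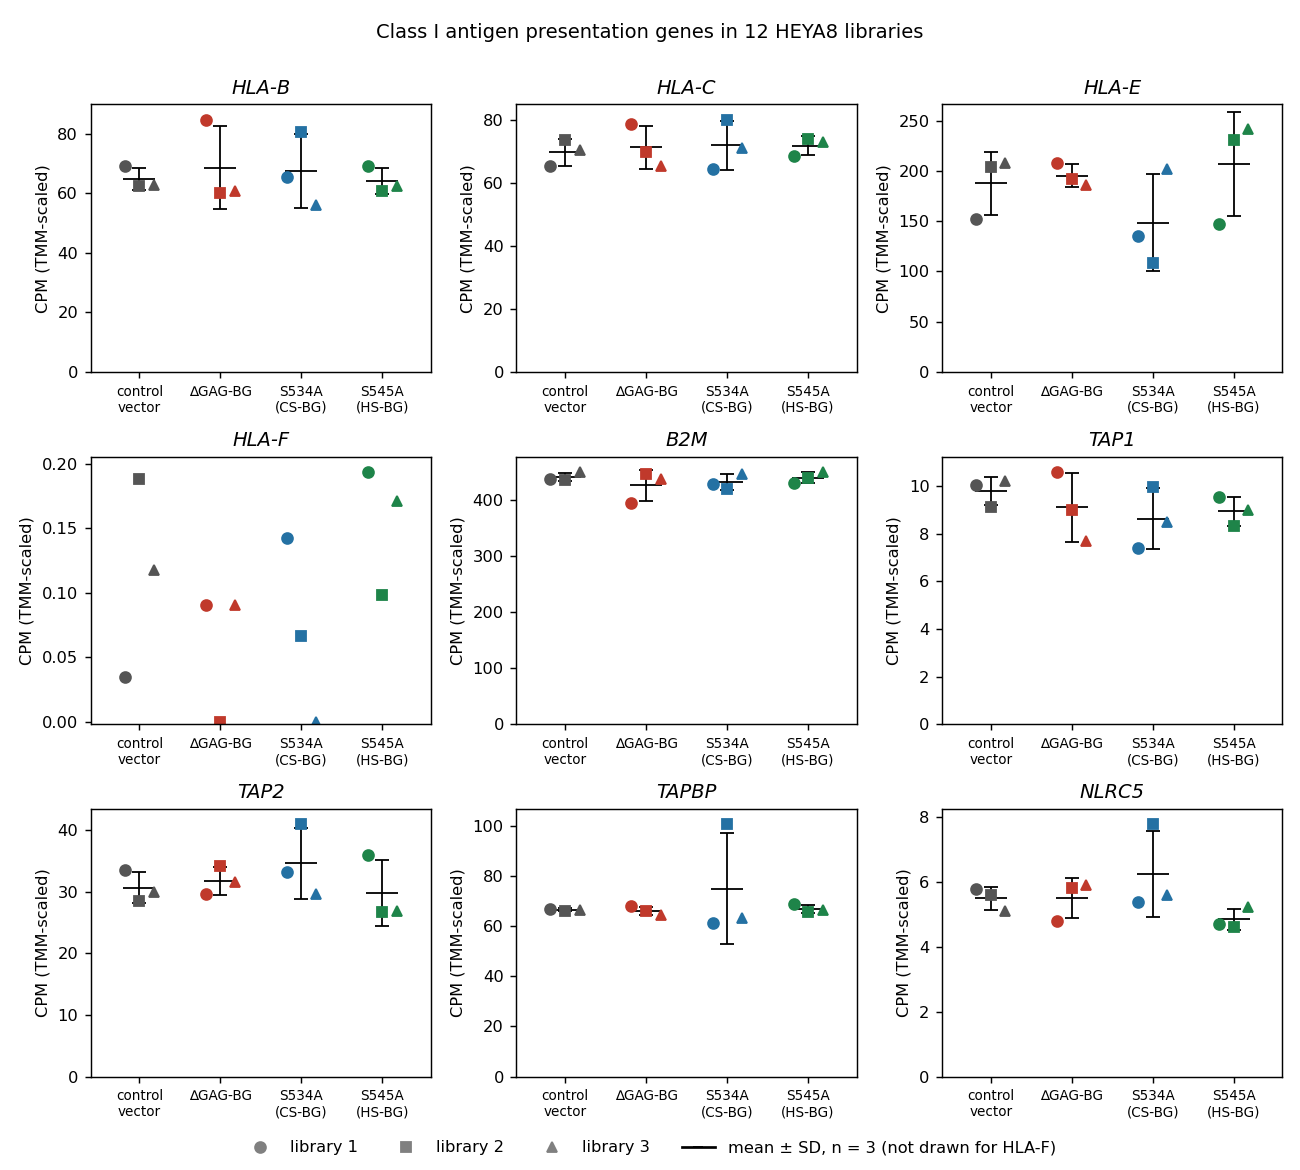
CPM after TMM scaling of the 9 class I genes in control vector, ∆GAG-BG, S534A and S545A libraries, where marker shape gives the library number and bars give mean ± SD of 3 libraries (not drawn for HLA-F). Groups overlap for every gene tested except NLRC5 between S534A and S545A, and S534A library 2 is the highest point for HLA-C, TAP2, TAPBP and NLRC5.

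The transporter subunits did not differ between genotypes beyond the spread of the libraries. TAP1 was at 10.1, 9.13 and 10.2 CPM in control vector, at 10.6, 9.003 and 7.72 CPM in ∆GAG-BG, at 7.42, 9.97 and 8.49 CPM in S534A, and at 9.53, 8.32 and 9.01 CPM in S545A. TAP2 was at 33.5, 28.5 and 30.0 CPM in control vector, at 29.6, 34.2 and 31.5 CPM in ∆GAG-BG, at 33.2, 41.0 and 29.7 CPM in S534A, and at 36.0, 26.7 and 26.8 CPM in S545A. All groups overlapped for both subunits, with TAP1 highest in ∆GAG-BG library 1 and TAP2 highest in S534A library 2. A same-strand gene overlaps 32.3% of TAP2's exon length and the antisense gene PSMB8-AS1 overlaps 9.96% of that of TAP1, and reads there may have been split or dropped in counting.

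TAPBP was nearly constant in 11 libraries and stood apart in 1. It was at 67.0, 66.1 and 66.6 CPM in control vector, at 67.8, 66.1 and 64.5 CPM in ∆GAG-BG, at 61.1, 101 and 63.2 CPM in S534A, and at 68.7, 65.5 and 66.2 CPM in S545A. S534A library 2 held 1.62 times the mean of the other S534A libraries, and the next highest of all libraries was 68.7 CPM. The S534A group thus spanned every other group.

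NLRC5 was the class I gene with the smallest unadjusted p. It was at 5.77, 5.60 and 5.08 CPM in control vector, at 4.80, 5.80 and 5.91 CPM in ∆GAG-BG, at 5.36, 7.77 and 5.58 CPM in S534A, and at 4.69, 4.60 and 5.22 CPM in S545A. All 3 S545A libraries were below all 3 S534A libraries. The means were 4.84 ± 0.337 and 6.24 ± 1.33 CPM (SD, n = 3 each), and the log2 fold change of S545A against S534A was -0.37 ± 0.164 (95% interval -0.728 to -0.0116). The edgeR p was 0.0440 before adjustment, and the adjusted p of 0.702 did not pass. The two-sided exact permutation test gave p = 0.1, the smallest that 3 against 3 libraries allow. Without S534A library 2 the log2 fold change was -0.17 (edgeR adjusted p = 0.9997). With libraries 2 and 3 summed it was -0.37, and the unadjusted p was no longer below 0.05.

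Read against the whole table, these genes did not stand out. With edgeR, 0 of the 8 class I genes tested had an adjusted p below 0.05 in any of the 6 comparisons between genotypes, as had 0 of all 16069 genes (0%), and DESeq2 likewise called 0 of the 8. The test of any difference among the 4 groups called 0 of 8 class I genes against 1 gene of 16069 (0.00622%), and at an unadjusted p below 0.05 it held 0 of 8 against 1.55% of all genes. In S545A against S534A, 1 of 8 class I genes (NLRC5) had an unadjusted p below 0.05 beside 4.78% of all genes, and 1 of 8 had groups that did not overlap beside 10.1%. In the other 5 comparisons 0 of 8 had an unadjusted p below 0.05, where the share of all genes was 3.45% for S534A and 1.05% for S545A compared with control vector, 2.99% for S534A and 1.1% for S545A compared with ∆GAG-BG, and 0.865% between ∆GAG-BG and control vector. Class I groups did not overlap for 0 of 8 genes in these 5 comparisons, beside 7.65%, 8.82%, 5.66%, 5.05% and 4.87% of all genes in the same order. The median absolute log2 fold change of the 8 genes was 0.04 to 0.17 over the comparisons, beside 0.07 to 0.15 for all genes tested. Comparisons that share a group are not independent of each other.

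**Figure D3:**
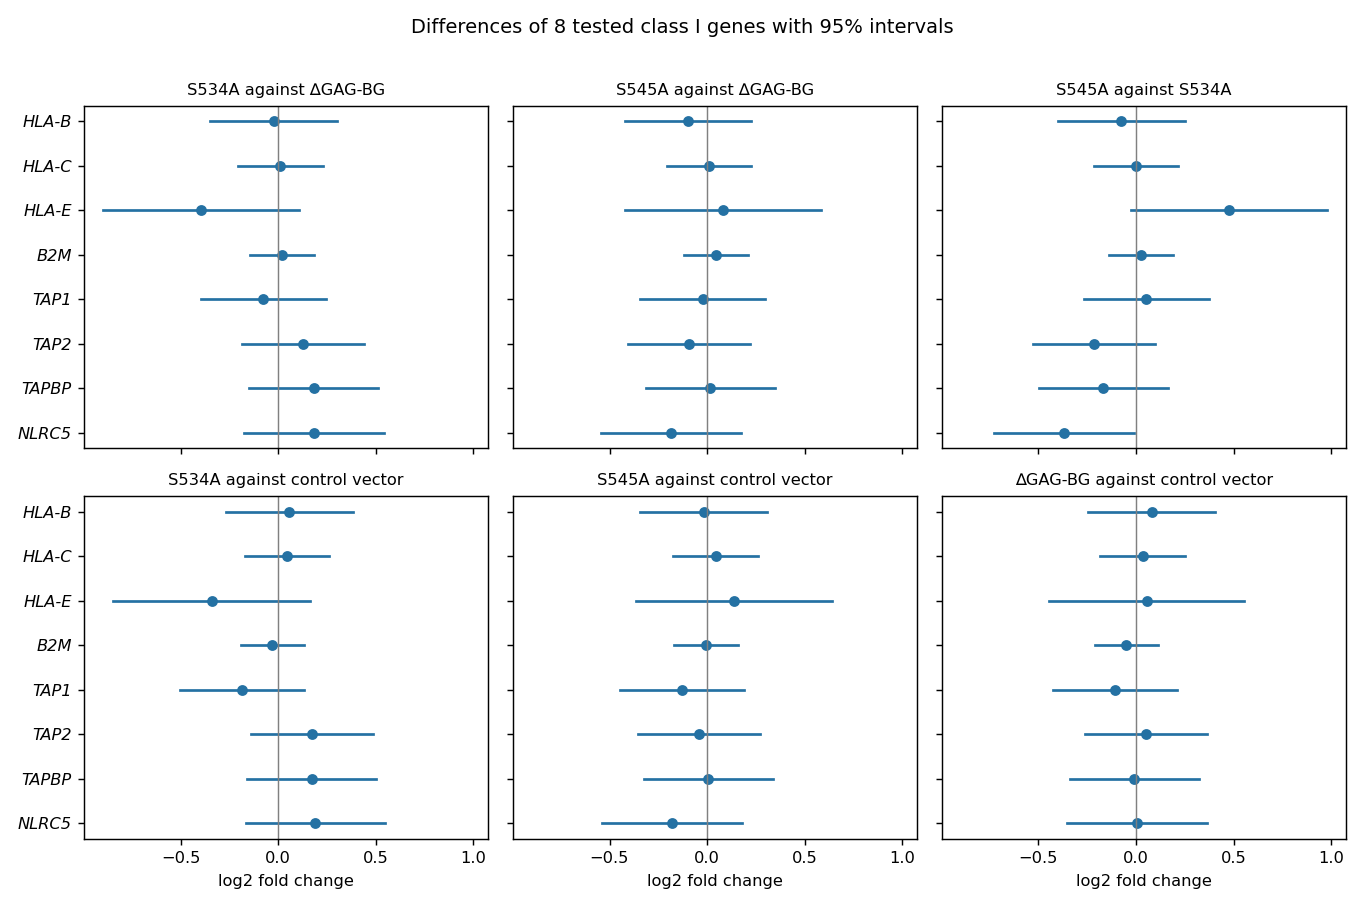
Log2 fold change (points) and 95% interval (lines) of the 8 class I genes tested in each of the 6 comparisons between genotypes, from edgeR with 3 libraries per group. Every interval includes 0 except that of NLRC5 in S545A against S534A, and the intervals of HLA-E are the widest and those of B2M the narrowest.

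S534A library 2 was the highest of the 12 for 4 of the 8 class I genes tested (HLA-C, TAP2, TAPBP and NLRC5), beside 26.2% of all genes tested, and the lowest for 1 of 8 (HLA-E), beside 25.4%. ∆GAG-BG library 1 was the highest for 2 of 8 (HLA-B and TAP1), beside 16.2% of all genes. The median SD of log2(CPM + 1) over the libraries was 0.173 for the class I genes, 0.165 for all genes tested and 0.149 for other genes of similar level.

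The catalytic subunits of the immunoproteasome shape peptides for class I. S534A library 2 was highest for 6 of 6 genes listed for the immunoproteasome and the proteasome activator, beside 26.2% of all genes tested. PSMB8, a catalytic subunit, was at 20.1, 22.9 and 20.4 CPM in control vector, at 21.7, 20.1 and 21.4 CPM in ∆GAG-BG, at 21.4, 34.9 and 23.5 CPM in S534A, and at 22.8, 23.6 and 23.8 CPM in S545A. PSMB9, another catalytic subunit, was at 5.94, 8.24 and 6.69 CPM in control vector, at 7.16, 6.68 and 5.14 CPM in ∆GAG-BG, at 7.14, 13.0 and 6.79 CPM in S534A, and at 7.51, 5.87 and 5.94 CPM in S545A. In S534A library 2, PSMB8 was 1.55 times and PSMB9 1.86 times the mean of the other S534A libraries, with the activator subunits PSME1 and PSME2 at 1.17 and 1.3 times. In the peptide loading list, TAPBPL (a tapasin-related peptide editor) was 2.12 times and the trimming peptidases ERAP1 and ERAP2 were 1.27 and 1.39 times that mean. The endoplasmic reticulum chaperones went the other way in this library, with CALR at 0.295, CANX at 0.627, PDIA3 at 0.656 and HSPA5 at 0.178 times the mean of the other S534A libraries.

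In ∆GAG-BG library 1 the chaperones were instead at their highest. CALR (calreticulin) was at 1463 CPM and CANX (calnexin) at 1113 CPM, which were 2.09 and 1.8 times the mean of the other libraries labelled ∆GAG-BG. HSPA5 (BiP), the main chaperone of the unfolded protein response, was at 11852 CPM there, 9.56 times that mean. The 8 class I genes tested ranged there from 0.82 times that mean for NLRC5 to 1.4 times for HLA-B.

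**Figure D4:**
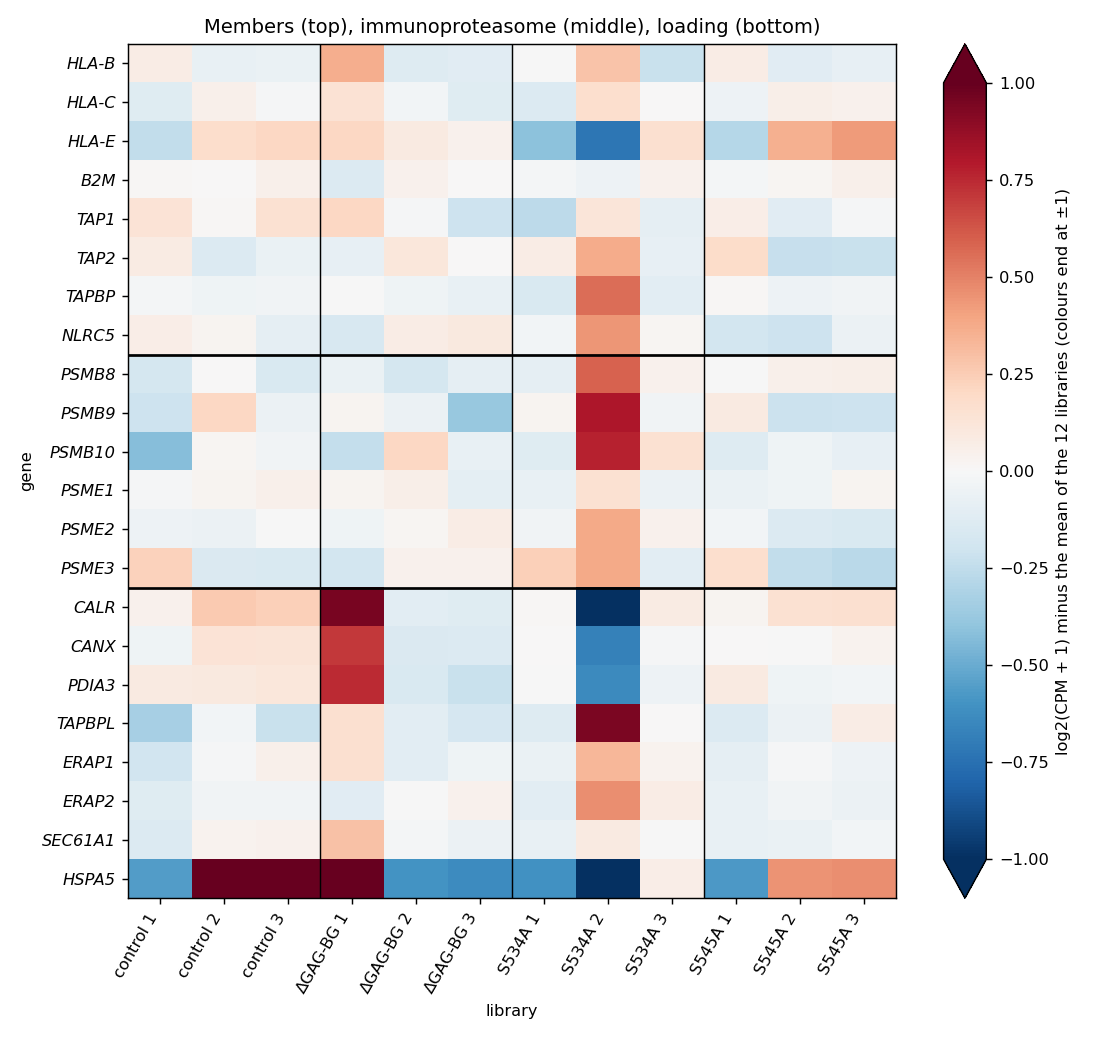
Log2(CPM + 1) of each gene (rows) minus its mean over the 12 libraries (columns), with the class I genes tested at the top, immunoproteasome and activator genes in the middle and peptide loading genes at the bottom, and colours ending at 1 in either direction. S534A library 2 is high for TAPBP, TAP2, NLRC5 and the 6 immunoproteasome and activator genes and low for HLA-E, CALR and HSPA5, while ∆GAG-BG library 1 is high for CALR, CANX, PDIA3 and HSPA5.

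IRF1, which binds the interferon-responsive elements of class I promoters, was at 21.4, 26.65 and 24.3 CPM in control vector, at 34.1, 24.4 and 25.7 CPM in ∆GAG-BG, at 23.3, 22.8 and 27.0 CPM in S534A, and at 23.0, 26.3 and 24.3 CPM in S545A. IRF1 was highest in ∆GAG-BG library 1, and the other 11 libraries lay between 21.4 and 27.0 CPM.

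Of 84 other genes of the class I, interferon, NK ligand and class II pathways, 68 passed the count filter. With edgeR, 0 of 68 had an adjusted p below 0.05 in any of the 6 comparisons. In S545A against S534A, 3 of 68 (1 higher and 2 lower in S545A) had an unadjusted p below 0.05, beside 4.78% of all genes. SOCS3, a feedback inhibitor of cytokine signalling, had a log2 fold change of -0.86 ± 0.346 (SE). PSME2 had -0.25 ± 0.104 and SPPL3, an intramembrane protease, 0.20 ± 0.0878, and all 3 had an edgeR adjusted p of 0.702. SOCS3 stood at 40.4 CPM in S534A library 2 and at 9.79 to 15.8 CPM in the other 11 libraries. Without that library the log2 fold changes were -0.17 for SOCS3, -0.11 for PSME2 and 0.13 for SPPL3, and 0 of these 3 genes kept an unadjusted p below 0.05.

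In S534A against ∆GAG-BG, 3 of 68 genes had an unadjusted p below 0.05 beside 2.99% of all genes. These were SOCS3 (log2 fold change 0.80 ± 0.346), HSPA5 (-2.03 ± 0.908) and PSMB8 (0.34 ± 0.153), each with an edgeR adjusted p of 0.890. The libraries overlapped for all 3 genes. Without S534A library 2, the log2 fold change was 0.11 for SOCS3 and 0.09 for PSMB8, and without ∆GAG-BG library 1 it was -0.08 for HSPA5. The remaining comparisons held 3 of 68 genes at this level between S534A and control vector (3.45% of all genes) and 1 between S545A and ∆GAG-BG (1.1%). Where control vector was set beside S545A (1.05%) or ∆GAG-BG (0.865%), they held 0. Without S534A library 2, the 3 genes between S534A and control vector no longer had an unadjusted p below 0.05.

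The genes whose pattern over the 12 libraries was most like the mean standardised level of the class I genes were BNIP3L, PFDN5, SQRDL, IFITM3, RPS20, DHRS4, RPL11 and STYXL1, with Pearson's r from 0.909 to 0.932 among 16061 genes compared. Without S534A library 2 the r of these 8 genes was 0.684 to 0.775. The values are a description, since the libraries share scaling and, in part, near-identical content.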

How the data were processed

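HEYA8 libraries (NEBNext Ultra II Directional kit, paired-end reads) were processed by the authors. Per the labels, reads were checked with FastQC, trimmed with Trim Galore 0.4.5, handled with STAR 2.4 and SAMtools 1.2, and counted per gene with featureCounts, and the deposited values are raw counts per gene symbol. The submitters' processing notes name the mouse build mm10 (GRCm38), whereas the table holds human genes and 33609 of the 36112 symbols it shares with GENCODE 29 have that release's GRCh38 coordinates. The strand setting is not given in the sources used here, so that antisense overlaps cannot be resolved. No mitochondrial counts were present in the table.

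All 12 libraries entered 1 edgeR 4.0.16 quasi-likelihood model (R 4.3.3) of 4 groups with TMM scaling, a filter at a minimum count of 10 (16069 of 56269 genes), 8 residual degrees of freedom and Benjamini-Hochberg adjustment over all genes tested. Fold changes are given with the standard error and 95% interval from this model, which takes the libraries of a group as independent. DESeq2 1.42.0, limma 3.58.1 and other scalings, filters, a replicate block and left-out libraries were alternatives. The 9 genes and the pathway lists were chosen with earlier results of these data known. Values are given for every class I gene, and a fold change only where the unadjusted p was below 0.05 or groups did not overlap, besides HLA-B, HLA-C and B2M in S545A against S534A. HLA-E was added to these after values were seen. In the other lists, genes past the adjusted threshold and the 3 smallest p in S545A against S534A and in S534A against ∆GAG-BG were named, with PSMB8, PSMB9 and IRF1 always given as levels, and 1 further gene of this rule is not reported here. Floors and intervals of counts cover counting error only. The model was tested on simulated data for S545A against S534A. Of 195 genes changed 2-fold and tested, 156 were recovered, and 5 others among 15831 genes were called falsely. The simulation gave every gene the same spread and held no library that stood apart, so this recovery does not carry over to the real libraries. Promoters were searched with Biopython 1.88 for alignment. Same-numbered libraries of S545A and control vector deviated together (correlations 0.732, 0.48 and 0.481). In both groups libraries 2 and 3 were nearly alike and library 1 stood apart. These correlations therefore cannot show that the libraries pair by number.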

Additional observations from a re-analysis of the deposited data

How the results depend on the processing

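Under all 18 alternatives of each comparison, 0 class I genes had an adjusted p below 0.05, and the smallest adjusted p of a class I gene was 0.275 (TAP2, libraries 2 and 3 of each group only). Leaving out 1 library at a time likewise gave 0 to 0. Counts at an unadjusted p below 0.05 did move. Without S534A library 3, HLA-E was below it in S534A against ∆GAG-BG and against control vector. With S534A library 2 and ∆GAG-BG library 1 both left out, TAP1 was below it in S534A against control vector. NLRC5 was below it in S545A against ∆GAG-BG in that same setting. The replicate block changed no call of a class I gene in any comparison. Same-numbered libraries deviated together in S545A against control vector. In the other 5 comparisons they correlated from -0.312 to 0.544, and at least 1 pair was below 0.1. Over all genes, where edgeR called 0, DESeq2 called 5 between S534A and ∆GAG-BG, 1 between the single-site mutants and 2 between S534A and control vector, and limma-voom, quantile normalization and no filter called 1 in each of these. With libraries 2 and 3 only, edgeR called 0 to 2 per comparison.

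In S545A against S534A, values near 0 changed sign. HLA-B was 0.0741 on the log2 scale without S534A replicate 2 and 0.0716 without S534A library 2 and ∆GAG-BG library 1, a setting chosen after seeing the data. HLA-C was 0.0035 with limma-voom, 0.0088 after quantile normalization, 0.0055 with at least 10 counts in every library, 0.0023 with the replicate block, 0.0877 without S534A replicate 2, 0.0372 without S545A replicate 1 and 0.0853 with both libraries left out. B2M was -0.0174 after quantile normalization. Leaving out 1 library at a time gave -0.19 to 0.07 for HLA-B and -0.0671 to 0.0877 for HLA-C. The cause was not tested.

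NLRC5 kept its direction in 18 of 18 alternatives (-0.47 to -0.17) and an unadjusted p below 0.05 in 10, but not in the other 8, among them the replicate block and libraries 2 and 3 summed. In the same comparison HLA-E also kept its direction in 18 of 18 (0.30 to 0.76) and had an unadjusted p below 0.05 in 5, among them DESeq2 and the replicate block but not libraries 2 and 3 summed (0.38). Over all alternatives, the median log2 fold change of all genes was at most 0.031 in absolute size. That value came from scaling by library size only, in S534A against control vector. With 3 libraries a group, intervals ranged from that of B2M (-0.137 to 0.188) to that of HLA-E (-0.0248 to 0.981) in this comparison, and small differences could be missed. These bounds are not limits of detection, since calls used p adjusted over all genes tested. NLRC5, whose interval excluded 0, was not called.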

Other observations

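Ligands of NKG2D, the activating receptor that counters class I inhibition on NK cells, were expressed at low levels, and 6 of 8 passed the count filter. MICB was at 15.7, 13.2 and 12.3 CPM in control vector, 8.15, 15.2 and 16.5 CPM in ∆GAG-BG, 14.1, 15.6 and 13.5 CPM in S534A, and 12.2, 12.3 and 10.0 CPM in S545A. ULBP1 was at 2.42, 6.97 and 6.73 CPM in control vector, 9.69, 4.55 and 5.59 CPM in ∆GAG-BG, 5.47, 0.667 and 6.001 CPM in S534A, and 6.74, 9.74 and 7.78 CPM in S545A. S534A library 2 was thus the lowest for ULBP1 as for HLA-E. Both genes were named after their values were seen. In S545A against S534A the groups did not overlap for MICB and ULBP1, as for 10.1% of all genes, with edgeR adjusted p of 0.702 for each. The directions were opposite: of the 6 ligands tested, 1 (ULBP1) was higher and 1 (MICB) lower in S545A without overlap.

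Class II presentation was close to absent. Of 12 class II genes, 6 (HLA-DRA among them) had 0 counts in every library and 1, HLA-DMA, passed the filter. HLA-DMA was at 1.07, 1.60 and 0.743 CPM in control vector, 1.31, 0.650 and 0.947 CPM in ∆GAG-BG, 0.923, 1.80 and 0.667 CPM in S534A, and 2.13, 1.66 and 1.47 CPM in S545A. All S545A libraries lay above all libraries labelled ∆GAG-BG (log2 fold change 0.85 ± 0.388, edgeR adjusted p = 1). Groups did not overlap, in either direction, for 5.05% of all genes in this comparison. HLA-DMA was named outside the rule given for the other lists.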
